A study of Homo sapiens with 12 samples.

Results

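The guanylate-binding protein genes GBP1, GBP2, GBP3, GBP4 and GBP5, 3 genes of the interferon-induced transmembrane family (IFITM1, IFITM2 and IFITM3) and BST2, which encodes tetherin, were followed across human stem cell-derived cardiomyocytes grown on a conductive and a non-conductive fibre scaffold. These 9 genes were taken by name from a table of 60583 gene names, and all 9 were found. They were grouped with results of the same scaffold comparison already known, so their fold changes, and the calls made from them, describe the genes and support nothing further. RUES2 is an established line of wild-type human embryonic stem cells, and its cardiomyocyte derivatives were moved at day 50 to an electrospun scaffold for 3 days. The conductive scaffold was 9.75% PEDOT:PSS/PVA (weight of PEDOT to PVA), here called PEDOT, in which a conducting polymer blend is mixed with polyvinyl alcohol. The control was 8% PVA, polyvinyl alcohol alone, which does not conduct. Both groups share the line, the genotype, RPMI medium with B27 and insulin, and the day, and every sample comes from 1 cell line. Each scaffold had 3 biological replicates, and each of these had 2 technical libraries of ribodepleted total RNA, 12 libraries in all. No label says whether the replicates were separate differentiations, so each p-value covers only the spread among these samples, which may be technical.

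Library totals were 19117192 to 30954829 counts of read pairs, and the technical libraries of each replicate were added to give 6 sums. The labelled cell type was checked first. The 8 cardiomyocyte markers (TNNT2, MYH6, MYL7, ACTN2, TTN, NKX2-5, RYR2 and MYBPC3) together held 62809 to 85441 CPM (counts scaled by TMM to a common library size) on PEDOT and 55102 to 74702 CPM on PVA. Most of this was TTN (34512 to 54735 CPM over the 6 sums), which has a very long transcript, and MYH6 (15275 to 21753 CPM). The rest were each at 245 to 3308 CPM. Fibroblast and pericyte genes were also present, and leukocyte genes were nearly absent, as set out further on. In such bulk RNA, fewer cells of a type and less RNA per cell cannot be told apart.

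Guanylate-binding proteins are large GTPases of the dynamin superfamily. Interferon gamma induces them, and they coat the vacuoles of intracellular microbes and the microbes themselves. IFITM proteins are small membrane proteins that hinder the fusion of enveloped viruses with cell membranes, IFITM1 mostly at the cell surface, and IFITM2 and IFITM3 mostly in endosomes. Tetherin holds newly budded enveloped virions on the surface of the infected cell. Type I interferon induces most of these genes through the interferon-stimulated response element, and many cells express IFITM genes without any infection.

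The promoters were examined for letters the genes share, since the genes were grouped by name and not by sequence. RefSeq's promoter table (build GRCh38.p14) holds 6 of the 9 genes, and GBP2, GBP5 and IFITM2 are not among them. The core of the interferon-stimulated response element (GAAA, any 2 bases, GAAA) was searched on both strands in the window from 250 bases before to 50 bases after the start of each gene. It was in 6 of 6 of these windows, against 3.57% of all 35116 windows in the table. The genes belong to families known to be induced by interferon, so these matches follow in part from the choice of genes. The windows are also not independent, since those of GBP1 and GBP3, and those of IFITM1 and IFITM3, share letters beyond the core. The sequences below run 5′ to 3′ on the gene's own strand from 140 bases before the start to 20 bases after it, and capitals mark each match to that core. They lie at chr1:89065189-89065348 (minus strand) for GBP1, chr1:89022847-89023006 (minus) for GBP3, chr1:89198923-89199082 (minus) for GBP4, chr11:313900-314059 (plus) for IFITM1, chr11:320841-321000 (minus) for IFITM3 and chr19:17405611-17405770 (minus) for BST2.
GBP1: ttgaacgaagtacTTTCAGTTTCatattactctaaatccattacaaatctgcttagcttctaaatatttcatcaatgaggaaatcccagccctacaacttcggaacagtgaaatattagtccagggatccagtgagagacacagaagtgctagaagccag
GBP3: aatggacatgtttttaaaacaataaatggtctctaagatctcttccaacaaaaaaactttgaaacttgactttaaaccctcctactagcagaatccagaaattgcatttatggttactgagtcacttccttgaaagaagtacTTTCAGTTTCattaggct
GBP4: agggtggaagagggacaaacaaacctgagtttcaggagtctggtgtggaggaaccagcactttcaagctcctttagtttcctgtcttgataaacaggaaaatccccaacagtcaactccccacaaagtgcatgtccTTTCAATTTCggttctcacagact
IFITM1: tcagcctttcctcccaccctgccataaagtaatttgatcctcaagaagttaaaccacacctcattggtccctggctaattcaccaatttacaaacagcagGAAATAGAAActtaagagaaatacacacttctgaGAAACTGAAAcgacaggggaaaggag
IFITM3: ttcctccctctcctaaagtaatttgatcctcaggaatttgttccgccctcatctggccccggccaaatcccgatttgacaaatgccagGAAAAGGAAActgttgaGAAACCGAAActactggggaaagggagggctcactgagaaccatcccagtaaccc
BST2: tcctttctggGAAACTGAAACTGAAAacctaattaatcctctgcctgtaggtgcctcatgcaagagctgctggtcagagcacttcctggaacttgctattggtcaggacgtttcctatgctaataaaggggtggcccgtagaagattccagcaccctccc

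The core stood on the opposite strand in the 3 GBP promoters and on the gene's own strand in IFITM1, IFITM3 and BST2. GBP1 and GBP3 had the same 10 letters there, TTTCAGTTTC, 127 bases before the start in GBP1 and 3 bases after it in GBP3. IFITM1, IFITM3 and BST2 held 2 matches each, and those of BST2 overlap by 4 bases. TTCNNNGAA was searched as a fixed pattern for the gamma-activated site of promoters that respond to interferon gamma. It was in 3 of 6 windows (GBP3, IFITM1 and BST2) and in 7.66% of all windows. BST2 holds 2 such sites, of which the one farther from the start overlaps the first core by 3 bases and the other overlaps none. In IFITM1 the site overlaps the second core by the same number. Gamma-activated sites with other letters were not searched, so windows without a match, such as that of GBP1, may still hold such a site. A kappa B site (GGG, any 2 bases, TTTCC) was in GBP4 alone among the 6 and in 1.91% of all windows. These are matches of letters, and no binding was measured.

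**Figure D1:**
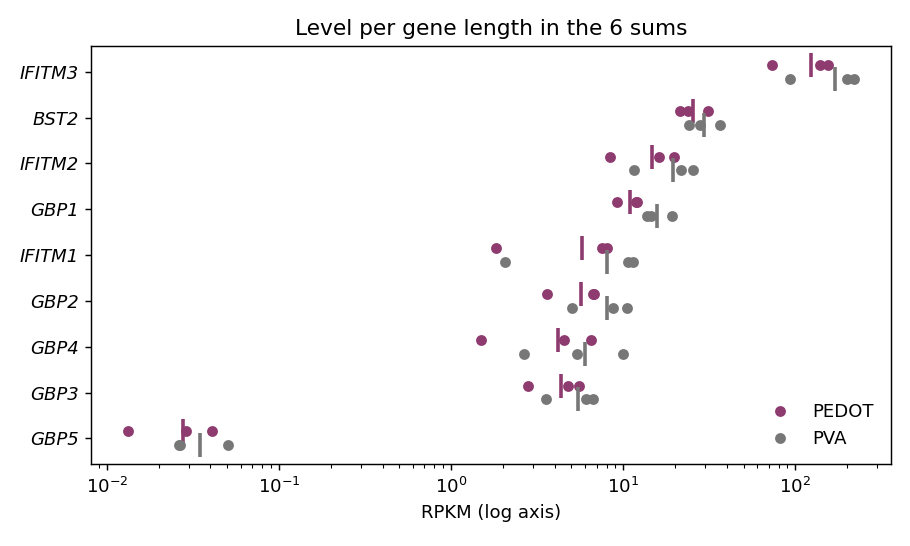
Level of each gene per exon length (RPKM, log axis) in the 3 PEDOT sums (upper row of each gene) and the 3 PVA sums (lower row), with each group's mean as a bar. IFITM3 stands above the other 8 genes in all 6 sums and GBP5 below them in all 6.

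Levels of different genes were compared per exon length, as RPKM on the linear scale, over the 6 sums. IFITM3 was highest, with means of 123 ± 43.9 RPKM on PEDOT and 171 ± 67.5 RPKM on PVA (SD, n = 3 each). BST2 followed at 25.4 ± 5.15 RPKM on PEDOT and 29.5 ± 6.35 RPKM on PVA, then IFITM2 at 14.7 ± 5.81 and 19.5 ± 7.11 RPKM and GBP1 at 11 ± 1.58 and 15.8 ± 2.94 RPKM in the same order of scaffolds. IFITM1, GBP2, GBP4 and GBP3 formed a group with means over the 6 sums of 6.90, 6.88, 5.08 and 4.91 RPKM. GBP5 was last, at 0.0310 RPKM. Only 2 steps of this order exceeded the spread over the sums. The lowest IFITM3 sum was at 72.9 RPKM and the highest BST2 sum at 36.6 RPKM, and the lowest GBP3 sum was at 2.78 RPKM where GBP5 reached 0.0508 RPKM at most. All other neighbours overlapped.

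The IFITM genes lie side by side on chromosome 11 (hg38), IFITM2 at 307631 to 315272, IFITM1 at 313506 to 315272 and IFITM3 at 319676 to 327537 on the opposite strand. In the annotation the authors counted on, 351 exon bases belong to both IFITM1 and IFITM2, 37.5% of the exon bases of IFITM1 and 22.7% of those of IFITM2. The counting command holds no option to assign reads that fall in 2 genes, so such reads were left out, and the RPKM of IFITM1 and IFITM2 are too low by an amount that cannot be read from the table. Of the 75-base stretches of IFITM1 transcripts, 27.7% recur in IFITM2 (GENCODE release 29 transcripts). These can be the same shared exon bases seen again, so they are not a separate limit. Of the 75-base stretches of IFITM3 transcripts, 6.48% recur in IFITM2 and 4.99% in IFITM1. Reads from the shared exon bases are missing from both IFITM1 and IFITM2, so the ratio of their levels is uncertain. IFITM3 shares 0 exon bases with another gene of its strand and is affected less. The 5 GBP genes form a cluster on chromosome 1, with GBP3 at 89006679 to 89022894, GBP1 at 89052319 to 89065230, GBP2 at 89106132 to 89150456, GBP4 at 89181144 to 89198942 and GBP5 at 89258950 to 89272804. GBP2 shares 8.60% of its exon bases with the weakly expressed GBP7. BST2, on chromosome 19 at 17402939 to 17405630, shares no exon base with another gene of its strand. It shares no 75-base stretch with transcripts of another gene.

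The question of the study is whether the conductive scaffold changes expression. Among the GBP genes, GBP1, GBP2 and GBP4 were each about 30% lower on PEDOT within same-numbered replicates, GBP3 was 19.96% lower without a call, and GBP5 was too weak to compare. Among the IFITM genes, IFITM3 and IFITM2 were 27.0% and 24.9% lower and called, and IFITM1 was 25.9% lower and not called. BST2 was 13.8% lower and not called. A call here means an adjusted p under 0.05 in edgeR's quasi-likelihood test, with Benjamini-Hochberg adjustment over all 21298 genes tested. These percentages come from the fit in which same-numbered replicates of both scaffolds were paired, since same-numbered sums deviated together, and none of the 9 genes was called without the pairing.

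**Figure D2:**
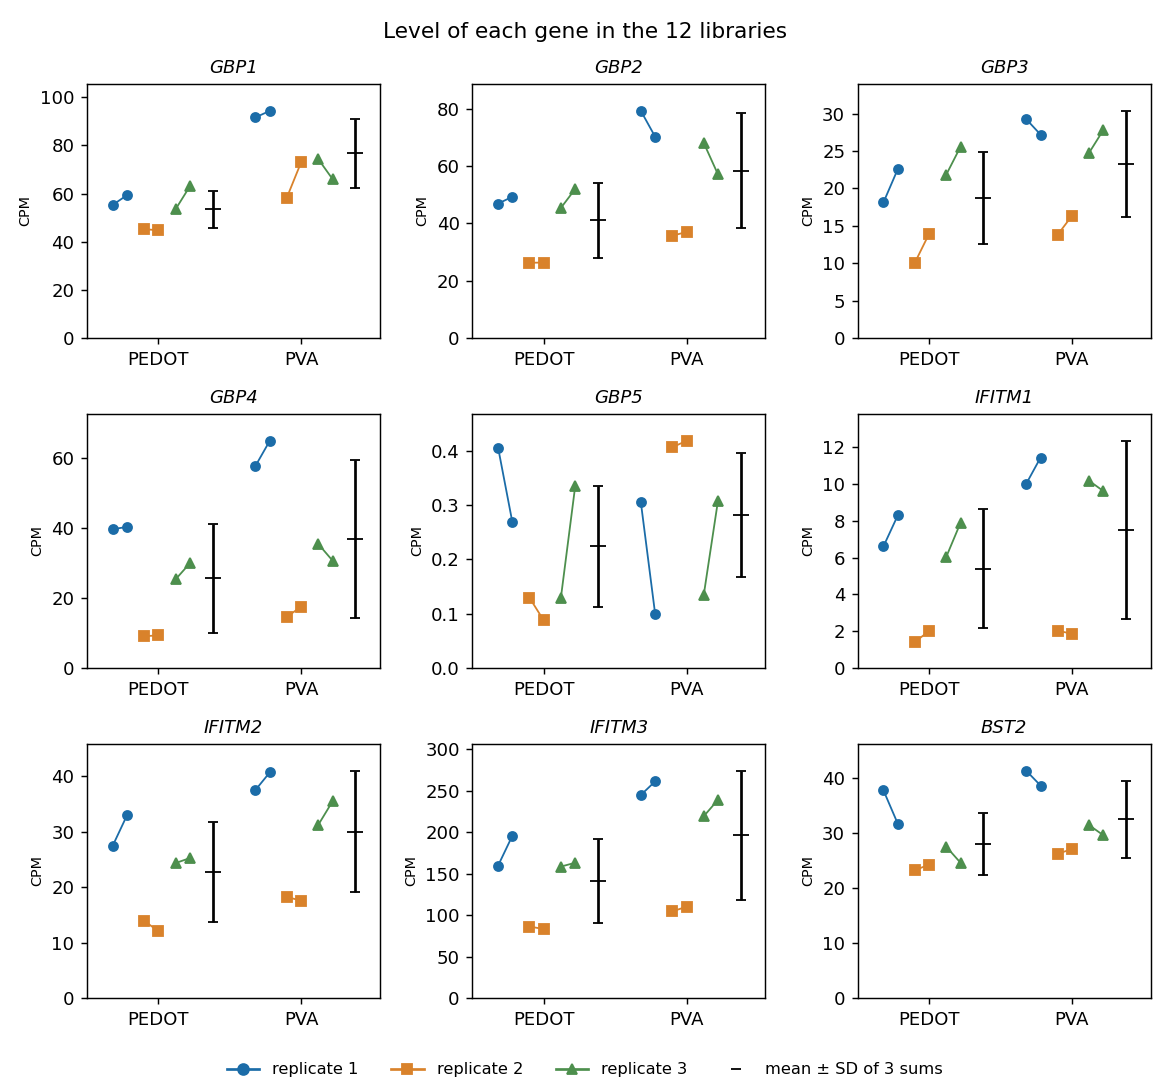
CPM of each gene in the 12 libraries (linear axis from 0), PEDOT left and PVA right, with the technical libraries of a replicate joined by a line and the mean ± SD of the 3 sums in black. Within a replicate number the PEDOT libraries of GBP1, GBP2, GBP4, IFITM2, IFITM3 and BST2 lie below the PVA libraries, and replicate 2 is low on both scaffolds for most genes.

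GBP1, the best studied human guanylate-binding protein and a sensor of bacterial lipopolysaccharide on the surface of cytosolic bacteria, was at 57.4, 44.6 and 58.4 CPM in the sums of PEDOT replicates 1, 2 and 3, against 93.2, 66.8 and 70.4 CPM in those of PVA replicates 1, 2 and 3. All 3 PEDOT sums lay below all 3 PVA sums. Its log2 fold change of PEDOT over PVA was -0.52 ± 0.16 (SE) without the pairing, with an unadjusted p of 0.0156 (edgeR adjusted p 1). The paired estimate was -0.52 ± 0.08 (edgeR adjusted p 0.0151). The log2 differences were -0.70, -0.58 and -0.27 in pairs 1, 2 and 3.

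GBP2, which is recruited with GBP1 to microbes in the cytosol, was at 48.1, 26.1 and 48.8 CPM in PEDOT replicates 1, 2 and 3, against 75.6, 36.5 and 63.0 CPM in PVA replicates 1, 2 and 3. The scaffolds overlapped, because PVA replicate 2 was lower than PEDOT replicates 1 and 3. GBP2 had a log2 fold change of -0.51 ± 0.33 (SE) without the pairing and -0.50 ± 0.07 with it (edgeR adjusted p 0.00953). GBP4, a family member that joins the complexes built by GBP1, was at 39.9, 9.13 and 27.7 CPM in PEDOT replicates 1, 2 and 3, against 61.1, 16.3 and 33.2 CPM in PVA replicates 1, 2 and 3. Its log2 fold change was -0.53 ± 0.61 without the pairing and -0.56 ± 0.09 with it (edgeR adjusted p 0.0288), and pair 2 had the largest difference, -0.83.

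GBP3, whose gene lies next to GBP1, was at 20.5, 11.9 and 23.8 CPM in PEDOT replicates 1, 2 and 3, against 28.5, 15.3 and 26.2 CPM in PVA replicates 1, 2 and 3. It was lower on PEDOT in 3 of 3 pairs, by least in pair 3 (-0.14 on the log2 scale), and its paired log2 fold change of -0.32 ± 0.09 (SE) did not pass (edgeR adjusted p 0.217). GBP5, known as an inducer of inflammasome assembly and a restriction factor of HIV, had 18, 5 and 11 counts in the PEDOT sums and 10, 19 and 12 counts in the PVA sums. With so few counts, no difference was detectable at this depth. Its log2 differences had no common direction, at 0.53, -1.61 and 0.11 in the 3 pairs.

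IFITM3, the family member best known for restricting influenza virus, was at 179, 83.9 and 161 CPM in PEDOT replicates 1, 2 and 3, against 253, 108 and 228 CPM in PVA replicates 1, 2 and 3. Replicate 2 was the lowest on both scaffolds. The log2 fold change of IFITM3 was -0.47 ± 0.38 (SE) without the pairing and -0.46 ± 0.06 with it (edgeR adjusted p 0.00883). The 3 pairs gave similar values, -0.50, -0.36 and -0.50.

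IFITM2 was at 30.5, 12.9 and 24.9 CPM in PEDOT replicates 1, 2 and 3, against 39.1, 17.9 and 33.2 CPM in PVA replicates 1, 2 and 3, again with replicate 2 lowest. The paired estimate was -0.41 ± 0.07 on the log2 scale (SE), at an edgeR adjusted p of 0.0382. IFITM1 was at 7.52, 1.70 and 7.001 CPM in PEDOT replicates 1, 2 and 3, against 10.7, 1.94 and 9.92 CPM in PVA replicates 1, 2 and 3. Both replicate 2 sums of IFITM1 stood far below the other 4, and its difference in pair 2 was -0.18 where pairs 1 and 3 were at -0.50. IFITM1 had a paired estimate of -0.43 ± 0.13 on the log2 scale (SE), at an edgeR adjusted p of 0.265. BST2 was at 34.4, 23.5 and 26.0 CPM in PEDOT replicates 1, 2 and 3, against 40.3, 26.7 and 30.5 CPM in PVA replicates 1, 2 and 3. Its pairs were the most alike of the 9 genes, at -0.23, -0.18 and -0.23, and its paired log2 fold change of -0.21 ± 0.07 (SE) was not called (edgeR adjusted p 0.374).

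**Figure D3:**
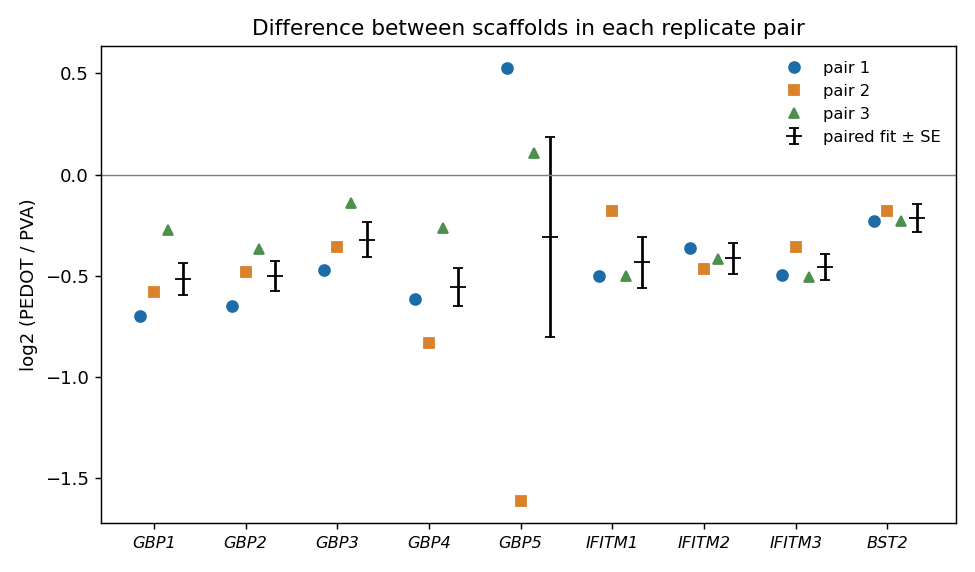
Log2 ratio of PEDOT to PVA for each gene in replicate pairs 1, 2 and 3 (coloured points) and the paired fit's log2 fold change ± SE (black). All points but 2 of GBP5 lie below 0, and the IFITM3, IFITM2 and BST2 points lie closest together.

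Counted over the 9 genes, 5 were called lower on PEDOT in the paired fit and 0 higher, where 0.197% of all genes tested were called lower and 0.0704% higher. Without the pairing 0 of the 9 and 0% of all genes were called in edgeR and 0 in DESeq2. In edgeR 1 of the 9, GBP1, had an unadjusted p under 0.05, as had 0.892% of all genes. Unadjusted, 8 of the 9 genes and 4.38% of all genes were lower on PEDOT in the paired fit at a p under 0.05. All 9 log2 fold changes were below 0 in both fits, as were 51.2% of those of all genes with the pairing and 51.9% without it. The paired medians were -0.43 over the 9 genes and -0.0037 over all genes. Lower in 3 of 3 pairs were 8 of the 9 genes and 15.6% of all genes, and higher in 3 of 3 pairs 0 of the 9 and 13.3% of all genes. All PEDOT sums lay below all PVA sums in 1 of the 9 genes and 2.31% of all genes, and above them in 0 of the 9 and 2.28% of all genes. Since the genes were chosen with this comparison known, nothing is read from the gap between these shares.

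The technical libraries gave a further view of the same differences. In 6 of the 9 genes (GBP1, GBP2, GBP4, IFITM2, IFITM3 and BST2), both PEDOT libraries were below both PVA libraries in all 3 pairs, a pattern seen in 1.63% of all genes. Taken pair by pair, it held in 8, 7 and 7 of the 9 genes in pairs 1, 2 and 3, and in 20.1%, 25.2% and 17.3% of all genes. In GBP3 this held in pair 1 alone, in GBP5 in pair 2 alone, and in IFITM1 in pairs 1 and 3. For GBP1, GBP2, GBP4, IFITM2 and IFITM3, the largest log2 gap between technical libraries of 1 replicate was 0.32, 0.26, 0.26, 0.26 and 0.29, each smaller than the gene's paired scaffold difference. For GBP3, IFITM1 and BST2 1 of the 6 gaps was larger than that difference, and for GBP5 5 were.

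The calls depended on single libraries and on the choice of genes and scaling. Of the 5 called genes, none was called with upper-quartile scaling, with genes at a mean of 5 CPM or more only, or with the higher-numbered technical libraries alone, and 1 was called with the lower-numbered ones alone. Among all genes these settings called 1 of 21298, 1 of 11791, 4 of 18819 and 16 of 18791, in that order. The main paired fit called 57 of 21298. Leaving out PEDOT replicate 1 library 3 left 0 calls among the 9 and 4 among all 21228 genes tested. One call was left without PEDOT replicate 1 library 2 (GBP2), without PVA replicate 3 library 1 (IFITM3) and without pair 2 (IFITM3). Of all genes, 15 of 21199, 36 of 21331 and 22 of 21947 were called there. Leaving out PEDOT replicate 3 library 1 or PVA replicate 2 library 3 left 2 calls, and leaving out PVA replicate 1 library 3 left 3. All genes called were then 27 of 21219, 28 of 21273 and 22 of 21287. All 5 stayed called without pair 1, without pair 3, with DESeq2 and with every gene with a count. Those settings called 170 of 21297, 284 of 21746, 96 of 21298 and 389 of 39687 genes. All 5 also stayed called without PEDOT replicate 2 library 1 (35 of 21301 genes) or PVA replicate 1 library 2 (73 of 21230). The remaining alternatives kept 4. Across the same 22 alternatives the paired log2 fold change of GBP2 was -0.60 to -0.38, that of IFITM3 -0.50 to -0.41 and that of GBP1 -0.64 to -0.42. GBP2 and IFITM3 were called in 16 of the 22 alternatives, GBP1 in 12, GBP4 in 10 and IFITM2 in 7.

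**Figure D4:**
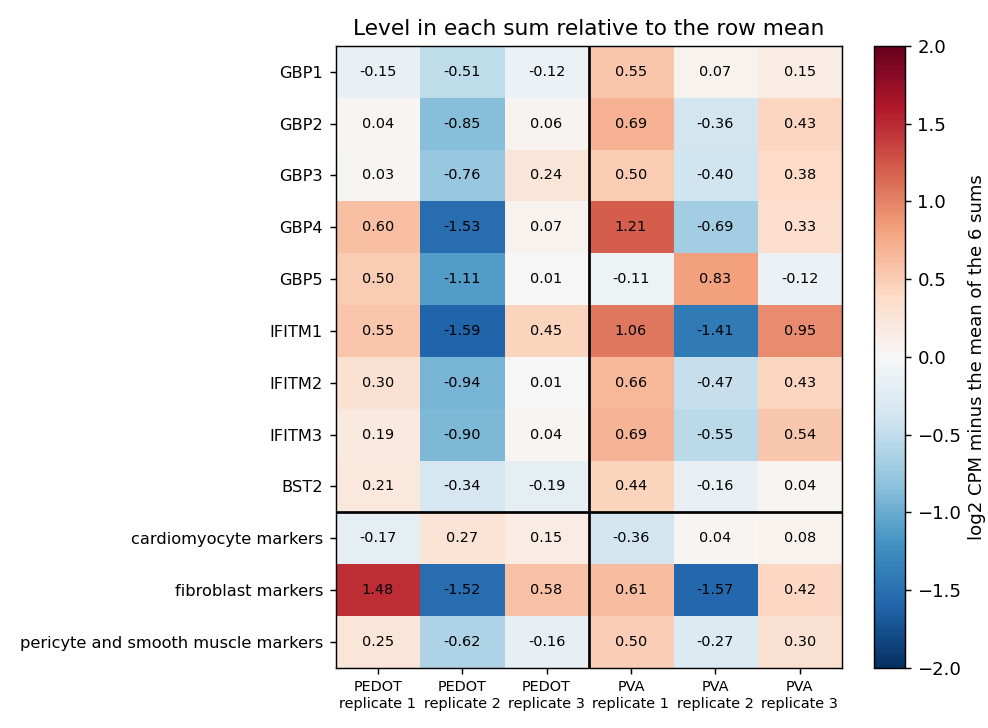
Log2 CPM of each gene, and of summed cardiomyocyte, fibroblast and pericyte and smooth muscle markers, in each of the 6 sums minus the mean of its row. Both replicate 2 columns are the lowest of their scaffold for 8 of the 9 genes, for the fibroblast markers and for the pericyte and smooth muscle markers. GBP5 and the cardiomyocyte markers differ.

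Levels also followed the replicate number. With scaffold and replicate number in 1 model, 8 of the 9 genes differed by replicate number (edgeR's quasi-likelihood test, adjusted p 7.72e-08 for GBP4 to 0.0115 for GBP1), all but GBP5, as did 31.8% of all genes tested. Both replicate 2 sums were below the other 4 in 6 of the 9 genes (GBP2, GBP3, GBP4 and the 3 IFITM genes) and in 19.9% of all genes, and those 6 were also called, as were 12.3% of all genes. IFITM1 had the widest step: replicate 1 was 4.95-fold above replicate 2 over both scaffolds. For GBP4 the same ratio was 4.01, for IFITM2 2.27, for IFITM3 2.24, for GBP2 1.96, for GBP3 1.80, for BST2 1.48 and for GBP1 1.34. Replicate 3 was close to replicate 1 for IFITM1 and GBP3, at 0.930 and 1.03 of its level, and lower for GBP4 and BST2, at 0.615 and 0.758. All 8 were called by replicate number in DESeq2, with library-size scaling, with every gene with a count and with the lower-numbered libraries alone, and 7 with the higher-numbered ones alone, where GBP1 was not. Among all genes, 5257 of 21298 were called by DESeq2 and 6703 of 21298 with library-size scaling. With every gene with a count, 7702 of 39687 were called. The lower-numbered libraries alone gave 4997 of 18791 and the higher-numbered ones 4971 of 18819.

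The makeup of the GBP transcripts differed in replicate 2 on both scaffolds, which is given as values without a test. Per exon length, GBP1 made up 53.8% of the 5 GBP genes in PEDOT replicate 2 and 54.8% in PVA replicate 2, and 39.6 to 41.7% in the other 4 sums. GBP4 made up 8.71% in PEDOT replicate 2 and 10.6% in PVA replicate 2, against 21.8% and 15.6% in PEDOT replicates 1 and 3 and 21.5% and 15.6% in PVA replicates 1 and 3. The GBP2 share stayed between 20.2 and 25.1% in all 6 sums. IFITM3 made up 84.8 to 87.8% of the IFITM transcripts in all sums, and IFITM1 2.19% in PEDOT replicate 2 and 1.93% in PVA replicate 2, against 4.39 to 4.60% elsewhere. Reads in the exon bases shared by IFITM1 and IFITM2 were left out of the counts. The shares of those genes are therefore too low and that of IFITM3 too high, by an unknown amount.

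Markers of other cells also differed between replicates and scaffolds. The 7 fibroblast markers, such as DCN and COL1A1, summed to 645 to 5172 CPM on PEDOT and 622 to 2835 CPM on PVA, with both replicate 2 sums lowest (645 and 622 CPM) as for the IFITM genes. The fibroblast sum is mostly COL1A1 and COL3A1. Gene by gene, both replicate 2 sums were lowest in 6 of the 7. POSTN went the other way, at 40.6 and 45.8 CPM in replicate 2 and 13.9 to 20.5 CPM elsewhere. PDGFRA differed little between replicates 1 and 2 (12.5 and 11.1 CPM on PEDOT, 13.1 and 10.7 CPM on PVA). Both replicate 2 sums were also the lowest for pericyte and smooth muscle markers (999 and 1276 CPM), for 6 epicardial and mesothelial markers (48.7 and 43.4 CPM) and for 6 endoderm and epithelial markers (6.05 and 5.90 CPM). Among single tested genes of these lists that held in 6 of 7, 4 of 5 and 1 of 4. In the endoderm list EPCAM and APOA1 were higher in replicate 2 than in replicate 1 (log2 difference 0.55 and 0.77). AFP and CDH1 were lower (-3.25 and -2.54). The replicate 1 sums of that list were mostly TTR, which was not tested (8.66 CPM on PEDOT, 9.07 CPM on PVA, 0 in replicate 2). The median log2 difference of replicate 2 from replicate 1 was -2.45 for the fibroblast list, -0.97 for the pericyte and smooth muscle list, -1.61 for the epicardial list and -0.996 for the endoderm list, against 0.47 for the cardiomyocyte list. Between scaffolds the median paired estimate of the fibroblast markers was 0.32 on the log2 scale, with 0 of 7 called. With every gene with a count 4 were called higher, without pair 3 it was 3, and without PVA replicate 3 library 3 it was 2. Without pair 2, PEDOT replicate 2 library 1 or PVA replicate 1 library 2 it was 1. The cardiomyocyte sum was higher on PEDOT in each pair. The median of that list was 0.18, with 2 of 8 below 0 and 0 called (3 called higher with every gene with a count, 1 without pair 3). The 7 pericyte and smooth muscle markers summed to 999 to 1823 CPM on PEDOT and 1276 to 2167 CPM on PVA, and the sum was lower on PEDOT in each pair. That sum is mostly ACTA2 and RGS5, and PDGFRB, MYH11, CNN1, CSPG4 and KCNJ8 were higher on PEDOT in pair 1. Of the 7, RGS5, a pericyte regulator of G-protein signalling, and ACTA2, smooth muscle actin, were called lower in the paired fit, at -0.46 ± 0.06 and -0.41 ± 0.07 on the log2 scale (SE), with edgeR adjusted p of 0.00795 and 0.0334. ACTA2 is also expressed by immature cardiomyocytes. Neither was called without PEDOT replicate 1 library 3, without pair 2, with upper-quartile scaling, with a mean of 5 CPM or more or with the higher-numbered libraries. With the lower-numbered libraries, and without pair 3, PEDOT replicate 1 library 2, either library of PEDOT replicate 3, PVA replicate 1 library 3, PVA replicate 2 library 2 or PVA replicate 3 library 1, 1 call was left. The list's median was -0.074, with 5 of 7 below 0. The part of any of these cell types in the differences of the 9 genes was not tested.

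Markers of leukocytes and endothelium, in which GBP genes are known to be abundant, were low. Of the 8 leukocyte markers, CD3E and MS4A1 had no count in any library and only CSF1R passed the filter on low counts, and the 8 summed to 1.34 to 1.70 CPM on PEDOT and 1.39 to 2.00 CPM on PVA. PTPRC, the pan-leukocyte marker CD45, was at 0.0435 CPM or less in each sum. The 7 endothelial markers summed to 12.9 to 16.9 CPM on PEDOT and 17.6 to 22.4 CPM on PVA, nearly all of it KDR. CLDN5 was at 0.0870 CPM at most and listed at 0 in 3 of the 6 sums, and CDH5, the defining cadherin of endothelium, was at 0.0431 to 0.422 CPM.

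Other genes of the interferon pathway were read from lists. Of 18 interferon receptors, kinases and factors, all tested, 0 were called in the paired fit in either direction and 15 were below 0, at a median of -0.16 on the log2 scale. NLRC5, the activator of MHC class I genes, was at -0.48 ± 0.10 (edgeR adjusted p 0.0690), close to GBP2 in size. Of 36 other interferon-induced genes, 34 were tested, 34 were below 0 and 11 were called lower, with a median of -0.53. Without PVA replicate 3 library 1, and likewise without PEDOT replicate 1 library 3, 2 of them were called. Leaving out PEDOT replicate 1 library 2 left 6 calls. Leaving out pair 2, PEDOT replicate 2 library 1, PEDOT replicate 3 library 1, PVA replicate 1 library 3 or PVA replicate 2 library 3 left 7, and leaving out pair 3 gave 21. None was called with upper-quartile scaling, with a mean of 5 CPM or more or with the higher-numbered libraries, 5 with the lower-numbered libraries, 7 with library size only and 23 with every gene with a count. IFI44L, an interferon-induced gene of the IFI44 family, was at 1.08, 0.215 and 0.383 CPM in PEDOT replicates 1, 2 and 3, against 6.17, 0.544 and 1.43 CPM in PVA replicates 1, 2 and 3, or -2.11 ± 0.27 on the log2 scale (SE) in the paired fit, at an edgeR adjusted p of 0.00527. OAS1, MX1 and OAS3 were at -2.74, -2.02 and -1.91.

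Other genes of the same families were weak. GBP1P1, a pseudogene in the GBP cluster that shares 3.22% of the 75-base stretches of GBP1, was at 9.03, 4.67 and 6.36 CPM in PEDOT replicates 1, 2 and 3, against 12.4, 5.87 and 8.02 CPM in PVA replicates 1, 2 and 3 (edgeR paired adjusted p 0.272). GBP6 had 21 to 55 counts in a library, GBP7 3 to 17 and IFITM10 6 to 29. Of the 6 genes on this list, 5 were tested and 0 were called.

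The genes whose log2 CPM went most closely with each member over the 12 libraries are given as a description. The 12 libraries come from 6 biological replicates, so libraries of 1 replicate share culture and RNA, and how much of the likeness comes from replicate number or scaffold was not tested. For GBP2 the nearest of 15676 genes were NLRC5, IFIT3 and HLA-F (Pearson r 0.981, 0.981 and 0.980), all of them interferon-induced genes. For GBP1 they were TDRD7, BTN3A2 and IFIH1 (r 0.937, 0.923 and 0.918), and for GBP4 CDC42EP4, GALNT6 and PLSCR1 (r 0.987, 0.986 and 0.985). For IFITM1 they were COL8A1, a collagen of vessel walls, CHRNA3 and C1QTNF6 (r 0.992, 0.984 and 0.983). C1QTNF6, GLIPR2 and NID1, the last a basement membrane gene, were the nearest 3 of both IFITM2 and IFITM3 (r 0.974 to 0.984). GBP3 went with TNFRSF21, PHYHD1 and RAB27A (r 0.979, 0.974 and 0.967) and BST2 with CFI, MEIS2 and RAPGEF3 (r 0.963, 0.952 and 0.947). GBP5 was left out for its low level.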

How the data were processed

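RNA was ribodepleted total RNA, per the labels' protocols. The deposited values are counts (whole read pairs for each gene name, not normalized by the authors), and the table also gives the exon length of each gene name in bases. Per the file headers, the authors counted with featureCounts 2.0.1 (paired ends, reversely stranded) on GENCODE release 33; per the submitters' processing notes, reads were aligned with STAR to hg38, and its version is not given in the sources used here. Technical libraries were summed to 6 sums. Genes were kept by filterByExpr (minimum count 10, total 15), which left 21298, the 9 members among them. With TMM factors, edgeR's quasi-likelihood test (version 4.0.16, R 4.3.3) was run with the scaffold as the only term, two-sided, threshold 0.05, and with the replicate number as a block beside it. CPM use TMM factors, and log2 CPM a prior count of 2. Each SE was derived from the fold change and the F statistic. Across genes, how far a sum lay from the mean of its scaffold correlated positively between same-numbered sums (r 0.678, 0.703 and 0.503). Between others r was below 0 (-0.609 to -0.00497). Deviations from a mean of 3 sums add to 0, so these negative values are no separate evidence of pairing. By the rule used (each same-numbered pair over 0.1), the numbers pair the sums. The labels do not state such a pairing, which was read from the data. The members, the gene lists and the alternatives were chosen with earlier results of these data known. All 9 members are named, at most 4 genes of each other list (those of smallest paired p), markers with the list they belong to,, and the 3 genes of highest correlation per member. The procedure was tested on simulated counts. DESeq2 1.42.0 was run as an alternative. Protein sequences were not used here. GBP5 had 2 to 11 counts in a library, which limits its precision.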

Additional observations from a re-analysis of the deposited data

How the results depend on the processing

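Without the replicate block, 0 genes and 0 of the 9 were called under each of the 15 other settings (DESeq2 and edgeR), while 57 genes and 5 of the 9 were called with the replicate block. The 57 paired calls became 37 with library size only, 1 with upper-quartile scaling, 389 with every gene with a count, 1 with a mean CPM of 5 or more, 96 with DESeq2, and 16 and 4 with the lower-numbered and higher-numbered technical libraries alone, the last pair chosen after the data were seen. The 5 paired calls among the 9 became 0, 0, 1 and 0 with upper-quartile scaling, a mean CPM of 5 or more, and the lower-numbered and higher-numbered libraries. Leaving out a pair or a single library gave 4 to 284 calls in all and 0 to 5 among the 9. Without the block, leaving out 1 replicate moved the log2 fold change of GBP4 between -1 and 0.0454 (above 0 without PVA replicate 1) and that of GBP5 between -0.70 and 0.0701 (above 0, at 0.0142, without PEDOT replicate 2, and highest without PVA replicate 2). With the block, GBP5 ranged from -0.83 to 0.37 (above 0 without pair 2). The cause of these changes was not tested. The other 7 genes were below 0 under each setting run.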

Other observations

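Lists near the GBP genes in function were read the same way. Of 12 GTPases of the dynamin superfamily, to which GBP proteins belong, 1 was called lower in the paired edgeR fit (MX1), 0 higher, and 6 of 12 were below 0. That list held 0 calls without PEDOT replicate 1 library 3 or PVA replicate 3 library 1, with DESeq2, with upper-quartile scaling, with a mean of 5 CPM or more and with the higher-numbered libraries alone. The atlastins ATL3 and ATL1, which shape the endoplasmic reticulum, were at paired log2 fold changes of -0.15 ± 0.08 and -0.13 ± 0.14 (SE). Of 10 inflammasome and pyroptosis genes, through which GBP proteins act in macrophages, 5 passed the filter on low counts and 0 were called. CASP1 averaged 0.819 ± 0.325 CPM on PEDOT and 1.18 ± 0.632 CPM on PVA (SD, n = 3 each). CXCL9, CXCL10 and CXCL11, the chemokines that interferon gamma induces most strongly, did not pass the filter. Of 12 genes that NF-kB induces, 11 were tested and 1 was called lower, the chemokine CCL2. No gene of this list was called without pair 2, either library of PEDOT replicate 1, PEDOT replicate 3 library 1, PVA replicate 1 library 2, PVA replicate 2 library 3 or PVA replicate 3 library 3, nor with upper-quartile scaling, a mean of 5 CPM or more, or the lower-numbered or higher-numbered libraries alone. CCL2 was at 10.2, 2.09 and 5.43 CPM in PEDOT replicates 1, 2 and 3, against 15.5, 3.52 and 8.61 CPM in PVA replicates 1, 2 and 3, or -0.67 ± 0.12 on the log2 scale (SE) in the paired fit, at an edgeR adjusted p of 0.0293.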
